A study of Homo sapiens with 6 samples.

Results

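Vimentin, N-cadherin, fibronectin, S100A4 and THY1, which mark mesenchymal cells, and the transcription factors ZEB1, ZEB2, SNAI1, SNAI2 and TWIST1 were followed in A549 cells given anlotinib. These 10 genes were taken by name from the deposited table of 30483 genes, where each was found once. RNA had been sequenced from A549, an established human line from a lung adenocarcinoma, after 48 h with 5 µM anlotinib (3 libraries) or with the solvent DMSO (3 libraries). The groups follow the treatment label of each library, since the protocol text gives the anlotinib treatment for all 6, DMSO ones included. Anlotinib is a small-molecule drug that blocks receptor tyrosine kinases of the VEGF, FGF and PDGF receptor families. Both groups were grown alike in medium with serum, and the line has no other genetic change that the labels name. Whether each library is a culture of its own is not in the labels, and p-values here rest on the spread among these libraries, and that spread may be technical. In bulk RNA, fewer cells that express a gene and less of its RNA per cell cannot be told apart.

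In epithelial-mesenchymal transition (EMT), epithelial cells loosen their junctions and take up a motile, matrix-producing state. Zinc-finger factors of the SNAI and ZEB families and the helix-loop-helix factor TWIST1 drive it, the zinc-finger factors by binding E-box sequences in the promoters of epithelial genes such as the E-cadherin gene CDH1 and repressing them. N-cadherin and vimentin are then classically gained, and the microRNA-200 family holds ZEB1 and ZEB2 in check. TGF-β is a well-known inducer of the programme in A549 cells, which already carry mesenchymal features in culture.

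Of the 10 genes, 3 fell after anlotinib, 0 rose and 7 did not pass, all 10 having passed the minimum of 10 normalized counts on average. The N-cadherin gene CDH2 was 2.15-fold lower, the GPI-anchored surface glycoprotein gene THY1 1.59-fold lower and the vimentin gene VIM 1.44-fold lower. None of the 5 transcription factor genes passed, and 0 of the 10 genes rose at an unadjusted limma p under 0.05 or with edgeR, DESeq2 or limma-voom. The test was limma on log2(normalized count + 1) over the 15734 genes that reached the minimum, at a Benjamini-Hochberg adjusted p under 0.05. Of all these genes, 23.2% passed in either direction, 12.7% lower and 10.5% higher, so that 3 of 10 stands near the background. The median log2 fold change of the 10 genes was 0.02, against -0.02 over all genes tested. In the authors' deposited table the same 3 genes, and 0 of the other 7, have an adjusted p under 0.05, where 18.2% of genes with an adjusted p under 1 do. Its values for the 10 genes equal those of the DESeq2 run on the same reads, so that table is not separate evidence.

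**Figure D1:**
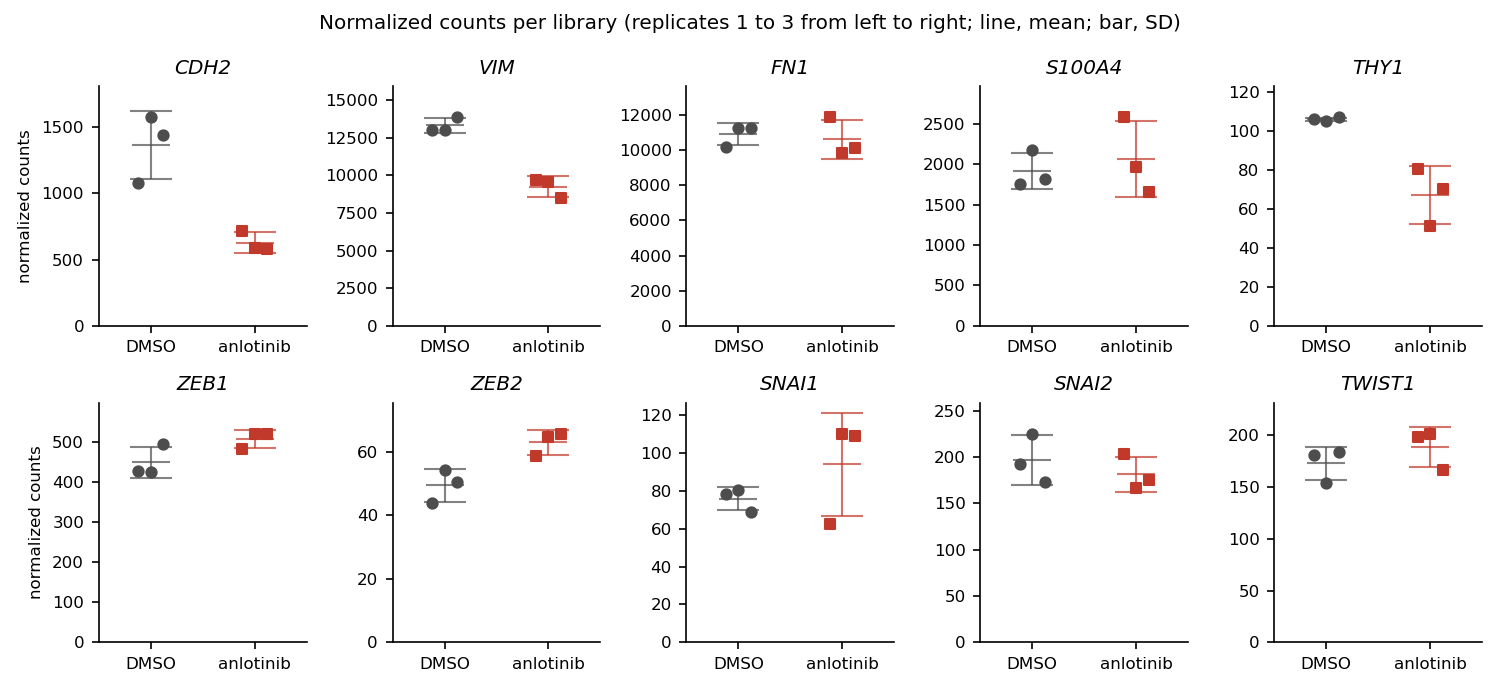
Normalized counts (vertical axes, from 0) of the 10 genes in the 3 DMSO libraries (grey circles) and the 3 anlotinib libraries (red squares), with the group mean as a line and the SD as a bar. The groups are apart for CDH2, VIM and THY1, which are lower with anlotinib, and for ZEB2, which is higher.

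The libraries held 13886120 to 15386107 reads assigned to genes, which makes 1 read worth 0.887 to 1.07 normalized counts. Keratin genes of the epithelial line were abundant, with KRT8 at 21101 ± 365 and KRT18 at 8026 ± 185 normalized counts in DMSO (SD, n = 3), and CDH1 was at 370 ± 72.4. The epithelial adhesion molecule gene EPCAM was at 6.61 ± 2.3 and the lung lineage factor gene NKX2-1 at 16.3 ± 3.13, so these markers were low. They were picked from a list of 14 after their values were seen. Of 10 tested markers of the lung epithelial line, 2 rose (KRT19 and CDH1) and 1 fell (KRT7), or 30%, near the 23.2% of all genes tested. All 14 markers together summed to 79590 to 82796 normalized counts in DMSO and to 44572 to 65208 with anlotinib, so that sum was lower without overlap. Without anlotinib replicate 1 the number lower was 5, KRT18 (-0.35, limma adjusted p = 0.01) and KRT8 (-0.31, adjusted p = 0.039) among them, and the number higher was 1 when DMSO replicate 2, DMSO replicate 3 or anlotinib replicate 2 was left out. Anlotinib replicate 1 stood nearest to the DMSO mean, among the anlotinib libraries, for 46.8% of all genes tested, for 62.5% of the genes that passed and for 7 of the 10 genes described here.

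CDH2 encodes N-cadherin, the classical cadherin of neural and mesenchymal cells (chromosome 18, 27950966 to 28177446, minus strand, GRCh38). Its normalized counts were 1082, 1574 and 1438 in DMSO replicates 1 to 3 and 719, 589 and 579 in anlotinib replicates 1 to 3. Every anlotinib library was below every DMSO library, and the lowest DMSO library stood well above the highest anlotinib library. The log2 fold change was -1.10 (SE 0.14, 95% interval -1.40 to -0.81, limma adjusted p = 0.000117), and it ran from -1.26 to -0.99 over all 17 alternative settings, passing in each. An antisense gene within CDH2, AC110015.1, had at most 1.07 normalized counts in any library.

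VIM encodes vimentin, the type III intermediate filament protein of mesenchymal cells (chromosome 10, 17228259 to 17237593, plus strand). It was counted at 13032, 13022 and 13843 in DMSO and at 9705, 9554 and 8473 in anlotinib replicates 1 to 3. The DMSO libraries lay close together, and all 3 anlotinib libraries were below them. The log2 fold change was -0.53 (SE 0.10, 95% interval -0.74 to -0.32, limma adjusted p = 0.0019), with a range of -0.56 to -0.45 over the alternatives, in each of which it passed. VIM-AS1 overlaps the start of VIM in antisense orientation. The labels do not state whether counting used strand, and reads of sense and antisense genes here cannot be told apart. It held 10.8 ± 5.09 normalized counts in DMSO and 16.6 ± 4.41 with anlotinib (n = 3 per group; limma adjusted p = 0.303), a small part of the VIM count.

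The 250 bases upstream of the VIM start that RefSeq lists (chr10:17227991-17228240, plus strand, GRCh38.p14) are shown because VIM was the most abundant of the genes that fell, with a GC box (GGGCGG or CCGCCC on either strand) in capitals.
VIM upstream: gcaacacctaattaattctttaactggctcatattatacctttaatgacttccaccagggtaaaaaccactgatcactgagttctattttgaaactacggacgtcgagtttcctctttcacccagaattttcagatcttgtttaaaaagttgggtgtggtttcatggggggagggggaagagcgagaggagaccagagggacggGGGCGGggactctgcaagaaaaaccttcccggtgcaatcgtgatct
This window holds 1 GC box, as at least 1 is found in 42.6% of 35116 RefSeq promoter windows of this length. The E-box CAGGTG, or CACCTG on the other strand, is not among its letters and occurs in 17.5% of the windows.

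THY1, also known as CD90, marks fibroblasts and other stromal cells (chromosome 11, 119417378 to 119424985, minus strand). It had 106, 105 and 107 normalized counts in DMSO and 80.7, 51.3 and 70 in anlotinib replicates 1 to 3. The DMSO libraries were almost equal, the anlotinib libraries were spread, with a coefficient of variation of 22.1%, and the groups did not overlap. The log2 fold change was -0.67 (SE 0.19, 95% interval -1.08 to -0.26, limma adjusted p = 0.0235). Leaving out DMSO replicate 1, 2 or 3 took that call away (limma adjusted p = 0.0751, 0.069 and 0.0766). So did leaving out anlotinib replicate 2 (adjusted p = 0.109), and without anlotinib replicate 1 the change was -0.81. The estimate was -0.67, -0.68 and -0.66 without those DMSO replicates and -0.49 without anlotinib replicate 2. In these settings 14.7%, 14.4%, 14.7% and 12.6% of all genes tested passed, against 23.2% with all libraries. With all libraries THY1 passed only narrowly with DESeq2 (adjusted p = 0.0494) and with scaling by library totals (limma adjusted p = 0.0466). USP2-AS1, which spans THY1 on the opposite strand, held 21.1 ± 1.16 in DMSO and 15 ± 3.23 with anlotinib (n = 3 per group; limma adjusted p = 0.295), so its reads could form part of the THY1 count.

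Fibroblast markers were looked at beside THY1. Of 12 markers of fibroblasts, pericytes and smooth muscle, 11 were in the table and 4 reached the minimum mean. Of these 4, 1 fell and 0 rose, or 25%, near the 23.2% of all genes tested. The summed level of all 11 was 2256 to 3002 normalized counts in DMSO and 626 to 920 with anlotinib. Most of it came from the type I collagen gene COL1A1, which was 5.49-fold lower. Without COL1A1 the other 10 summed to 170 to 225 normalized counts in DMSO and 260 to 286 with anlotinib. The matrix genes DCN and COL3A1 and the muscle filament gene DES were at 0.357 ± 0.618 each in DMSO, and none of the 11 was at 0 in every library. Markers of endothelium and blood, 9 of 12 in the table, summed to 67.3 to 103 in DMSO and 91.3 to 97.9 with anlotinib, nearly all from CD14 (the only one tested, limma adjusted p = 0.645), while PECAM1 was at 0 in every DMSO library. The part of other cell types in the THY1 result was not tested.

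FN1 encodes fibronectin, the matrix glycoprotein that integrins bind (chromosome 2, 215360440 to 215436172, minus strand). Its normalized counts were 10176, 11270 and 11267 in DMSO and 11863, 9846 and 10101 with anlotinib. The groups overlapped, with the highest and the lowest library both in the anlotinib group. The log2 fold change was -0.04 (95% interval -0.27 to 0.18, limma adjusted p = 0.798). This interval spans 0.83 to 1.13 times the DMSO level, and as its coverage was not tested it sets no firm limit. The sign of the FN1 change turned with scaling by library totals (0.031) and without anlotinib replicate 2 (0.0072). Within libraries the ratio of FN1 to CDH2 counts was 9.41, 7.16 and 7.84 in DMSO and 16.5, 16.7 and 17.4 with anlotinib. This ratio was higher in every anlotinib library, by 1.06 on the log2 scale. With CDH2 at -1.10 and FN1 at -0.04, it restates the decrease of CDH2 and adds no separate evidence. Some other ratios were computed and are not shown.

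S100A4, also called fibroblast-specific protein, is a calcium-binding protein that interacts with non-muscle myosin (chromosome 1, 153543613 to 153550136, minus strand). It had 1757, 2175 and 1813 normalized counts in DMSO and 2579, 1961 and 1655 with anlotinib. The groups overlapped, and both the highest and the lowest library were again in the anlotinib group. The log2 fold change was 0.09 (95% interval -0.22 to 0.40, limma adjusted p = 0.688), and it was -0.082 without anlotinib replicate 1. S100A3, a neighbour that overlaps S100A4 on the same strand, was 1.42-fold lower (adjusted p = 0.0332), a call lost without any single library other than anlotinib replicate 1, and with all libraries also lost with DESeq2 (0.077) and with scaling by library totals (0.065). At 151 ± 8.36 counts in DMSO, S100A3 is small beside S100A4, and reads shared between the pair are uncertain.

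**Figure D2:**
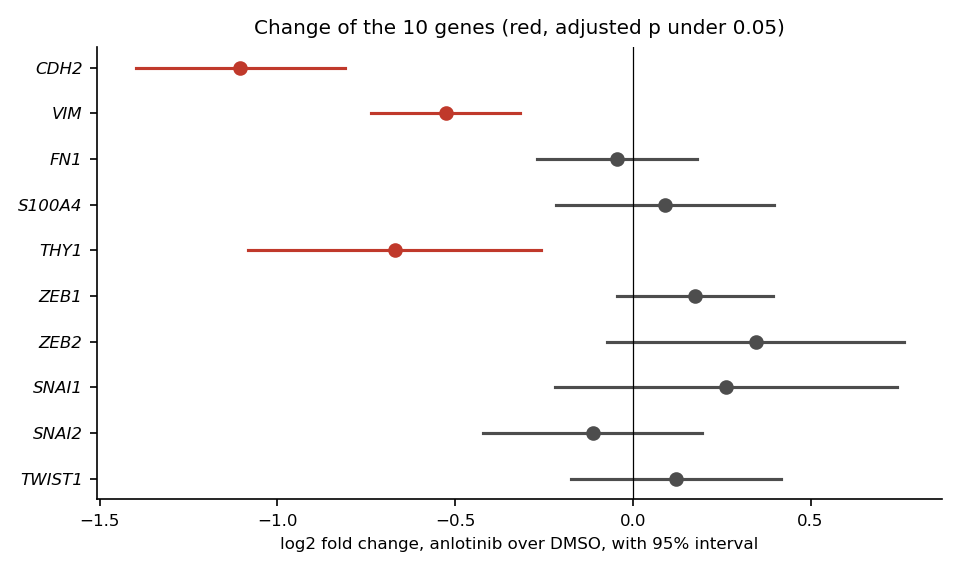
Log2 fold change of anlotinib over DMSO (horizontal axis) for each of the 10 genes, with its 95% interval from limma (3 libraries per group). Red marks the 3 genes with an adjusted p under 0.05, CDH2, VIM and THY1, while the intervals of the other 7 include 0.

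The 5 transcription factor genes were all expressed, and 4 of them had estimates above 0. ZEB1 (chromosome 10, 31318495 to 31529814, plus strand) had 429, 426 and 495 normalized counts in DMSO and 482, 520 and 521 with anlotinib. The highest DMSO library lay above the lowest anlotinib library, and the log2 fold change was 0.18 (95% interval -0.04 to 0.40, limma adjusted p = 0.235). ZEB1-AS1, on the opposite strand across the ZEB1 start, had 40 ± 8.96 in DMSO and 42.5 ± 3.75 with anlotinib (n = 3 per group; adjusted p = 0.791).

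ZEB2 (chromosome 2, 144364364 to 144524583, minus strand) had 43.9, 54.1 and 50.3 normalized counts in DMSO and 58.5, 64.7 and 65.6 with anlotinib. All anlotinib libraries were above all DMSO libraries, but the change did not pass (0.35, 95% interval -0.07 to 0.76, limma adjusted p = 0.219). The groups of libraries did not overlap for 4 of the 10 genes, ZEB2 and the 3 that fell. Over all genes tested that share was 40.2%, so 4 of 10 is the background rate.

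The 3′ untranslated regions of ZEB1 and ZEB2 hold many matches to the seeds of the microRNA-200 family, whose 5 mature members from RefSeq (GRCh38.p14) are shown with the seed, bases 2 to 8, in capitals, grouped by shared seed.
hsa-miR-200a-3p: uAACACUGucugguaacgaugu
hsa-miR-141-3p: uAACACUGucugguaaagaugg
hsa-miR-200b-3p: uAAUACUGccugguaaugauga
hsa-miR-200c-3p: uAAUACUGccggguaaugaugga
hsa-miR-429: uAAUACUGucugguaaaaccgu
Matches to the seeds read CAGTGTT for the first pair and CAGTATT for the others. The first match of each kind after the stop codon is shown in capitals for ZEB1 (chr10:31527618-31527643 and chr10:31528031-31528056, plus strand) and ZEB2 (chr2:144389049-144389074 and chr2:144389233-144389258, minus strand), from GENCODE release 29 transcripts on GRCh38.
ZEB1 CAGTATT site: attgttttatcttatCAGTATTatca
ZEB1 CAGTGTT site: caaaatcatcagaatCAGTGTTtgtg
ZEB2 CAGTATT site: cgcactaccatacatCAGTATTttta
ZEB2 CAGTGTT site: tgcaaaaattttgtaCAGTGTTaagg
ZEB1 held 8 matches in 1938 bases and ZEB2 9 matches in 5370 bases of the principal transcript's 3′ region. Among other genes with a region at least as long, trimmed to the same length, 40.4% and 74.5% held at least 1 match, and 0.0198% and 0% held as many. FN1 held 2 matches, SNAI2 held 1, and VIM, CDH2, SNAI1, TWIST1, S100A4 and THY1 held 0. A match is a description of the letters, and microRNAs were not measured in these libraries.

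SNAI1, the SNAIL factor, is an unstable repressor of CDH1 (chromosome 20, 49982999 to 49988886, plus strand). Its normalized counts were 78.2, 80.6 and 68.8 in DMSO and 62.5, 110 and 109 with anlotinib. Anlotinib replicates 2 and 3 were above every DMSO library, while anlotinib replicate 1 was below every one of them. With all libraries the log2 fold change was 0.26 (SE 0.22, 95% interval -0.22 to 0.74, limma adjusted p = 0.427). Without anlotinib replicate 1 it was 0.53 and passed (adjusted p = 0.0332), at a setting where 34.8% of all genes passed, so this library decides the call. No other setting gave a call for SNAI1.

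SNAI2, the SLUG factor (chromosome 8, 48917604 to 48921740, minus strand), had 192, 225 and 173 normalized counts in DMSO and 203, 166 and 175 with anlotinib. TWIST1 (chromosome 7, 19020991 to 19117672, minus strand) had 181, 154 and 183 in DMSO and 198, 201 and 166 with anlotinib. Both overlapped between groups. The log2 fold changes were -0.11 for SNAI2 (95% interval -0.42 to 0.19, limma adjusted p = 0.612) and 0.12 for TWIST1 (95% interval -0.17 to 0.42, limma adjusted p = 0.563). These intervals leave room for changes of up to 0.75 times and 1.34 times the DMSO level, so the misses do not show that the genes stayed level.

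Levels were compared between the 10 genes per kilobase of the deposited gene length, which joins the exons of all annotated transcripts. In DMSO the order of normalized counts per kilobase was VIM (2578 ± 91.3), S100A4 (1869 ± 221), FN1 (630 ± 36.4), CDH2 (276 ± 51.4), TWIST1 (84.9 ± 7.91), SNAI2 (57.9 ± 7.91), ZEB1 (52.1 ± 4.47), SNAI1 (45 ± 3.7), THY1 (17.9 ± 0.144) and ZEB2 (1.97 ± 0.205). Neighbours in this order did not overlap between libraries except SNAI2 and ZEB1. The 3 highest reached the 98.9th, 98.7th and 94.5th percentile of all genes tested, and ZEB2 the 1.65th. With anlotinib S100A4 came before VIM, at 2014 ± 459 and 1792 ± 130 normalized counts per kilobase, values that overlap, and ZEB1, SNAI1 and SNAI2 lay close together between 37.1 and 65.4.

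The level of ZEB2 depends on the length used, since its deposited 25058 bases join the exons of 48 annotated transcripts. Per kilobase of the principal transcript of 9541 bases, ZEB2 in DMSO was at 5.18 and still last. With principal transcripts VIM rather than S100A4 stayed first with anlotinib, though their libraries overlapped, and in DMSO ZEB1 and SNAI2 changed places at 83 and 81.

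**Figure D3:**
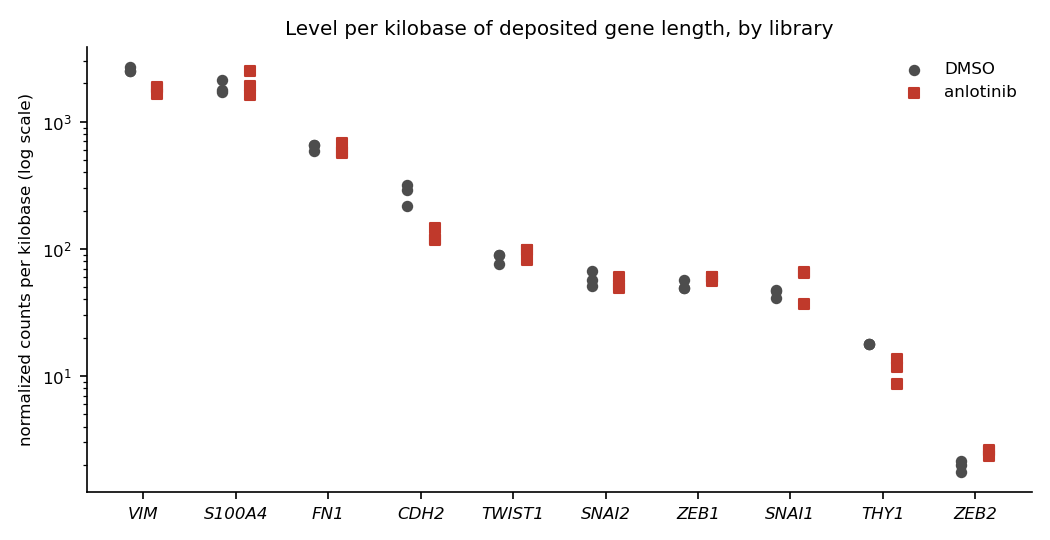
Normalized counts per kilobase of deposited gene length (vertical axis, log scale) for the 10 genes in every library, DMSO as grey circles and anlotinib as red squares, ordered by the DMSO mean. VIM, S100A4 and FN1 are the highest in every library and ZEB2 is the lowest.

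CDH1, the E-cadherin gene that the zinc-finger factors repress, was measured against CDH2. CDH1 had 451, 311 and 348 normalized counts in DMSO and 601, 522 and 472 with anlotinib, and rose by 0.53 on the log2 scale (limma adjusted p = 0.0171). The groups did not overlap, but leaving out DMSO replicate 2, DMSO replicate 3 or anlotinib replicate 2 removed the call (adjusted p = 0.087, 0.071 and 0.061). The ratio of CDH1 to CDH2 counts was 0.417, 0.198 and 0.242 in DMSO and 0.836, 0.885 and 0.815 with anlotinib. It was higher in each anlotinib library than in any DMSO library, by 1.64 on the log2 scale. Since CDH1 was higher and CDH2 lower in every anlotinib library, this separation was fixed beforehand. The ratio is thus a description and adds no separate evidence. The ratio compares libraries and, being uncorrected for length, says nothing of which cadherin was the more abundant.

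**Figure D4:**
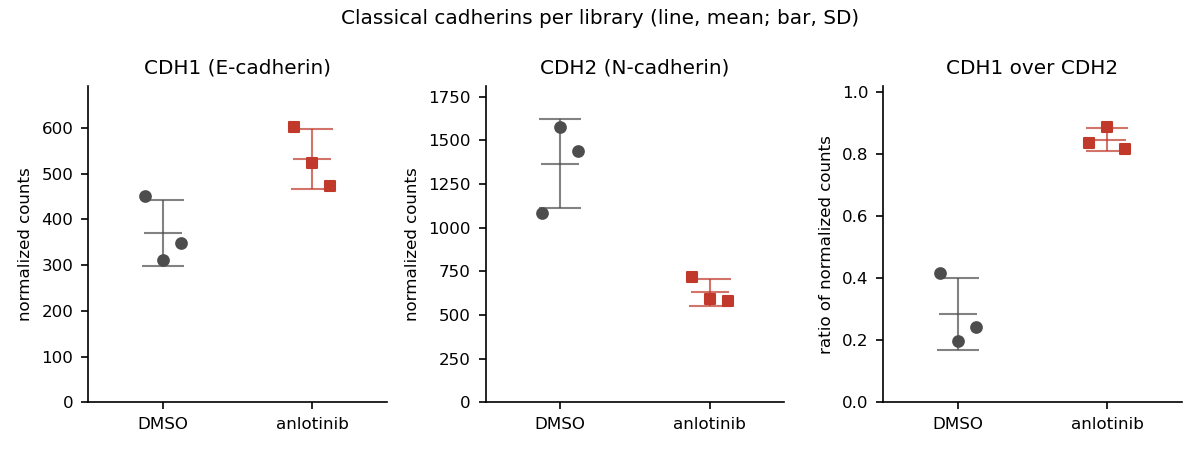
Normalized counts of CDH1 and CDH2 and the ratio of CDH1 to CDH2 counts (vertical axes, from 0) in the DMSO libraries (grey circles) and anlotinib libraries (red squares), with the mean as a line and the SD as a bar. The ratio is 0.198 to 0.417 in DMSO and 0.815 to 0.885 with anlotinib.

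Other mesenchymal and EMT marker genes fell in larger number. Of 25 tested, 14 fell and 0 rose, or 56%, where 23.2% of all genes passed in either direction, and their median log2 fold change was -0.50 against -0.02 over all genes. The tropomyosin gene TPM1 was 3.05-fold lower, COL1A1 5.49-fold lower and IGFBP3, an insulin-like growth factor carrier, 2.52-fold lower. ACTA2, the smooth muscle actin gene, stood at 0.36 (limma adjusted p = 0.0677) and TAGLN, a smooth muscle actin-binding protein gene, at -0.38 (adjusted p = 0.0815). With scaling by library totals ACTA2 passed as higher (adjusted p = 0.043), and without anlotinib replicate 1 TAGLN passed as lower (adjusted p = 0.017).

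Further EMT transcription factors and their partners went in different directions, 7 of 19 lower and 2 higher, with a median of -0.12. In either direction 47.4% passed, against 23.2% of all genes tested. HMGA2, a chromatin factor that acts upstream of SNAI1, was 1.66-fold lower, and TCF3, the E-box partner of TWIST1, 1.49-fold lower. TWIST2, the close relative of TWIST1, had 216, 217 and 234 normalized counts in DMSO and 164, 148 and 153 with anlotinib, and was 1.43-fold lower (limma adjusted p = 0.00929), a call lost without DMSO replicate 3 or anlotinib replicate 2 (0.054 and 0.05). SNAI3 rose 2.54-fold, from 31.1 ± 7.74 to 80.2 ± 18.5, and the homeobox factor gene PRRX1 3.48-fold, from 7.27 ± 2.03 to 27.2 ± 2.06 normalized counts (n = 3 per group). The number that fell was 3 to 4 without DMSO replicate 2 or 3 or anlotinib replicate 2.

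Among factors that maintain the epithelial state, 3 of 11 tested rose and 1 fell, with a median of 0.23. Together these are 36.4%, where 23.2% of all genes tested passed. ELF3, an epithelial ETS factor, rose 2.03-fold, KLF4 1.88-fold and GRHL3, a grainyhead factor, 5.04-fold from 2.78 ± 0.642 normalized counts. TP63, the basal cell factor, was 2.34-fold lower, and the number lower was 2 without anlotinib replicate 1. GRHL2 was at 0 in every DMSO library and at most at 4.75 normalized counts with anlotinib, and the splicing factor gene ESRP1 was at 2.43 ± 1.22 in DMSO and 7.34 ± 1.89 with anlotinib, too low to be tested. Of the microRNA host genes MIR200CHG and MIR205HG, neither was analysed here.

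Epithelial junction and keratin genes were split, with 5 of 24 tested higher and 4 lower and a median of -0.0027. The share that passed was 37.5%, against 23.2% of all genes tested. All 30 genes of the list summed to 92001 to 94737 normalized counts in DMSO and to 56128 to 76042 with anlotinib, a lower sum without overlap. KRT19 rose 2.44-fold, the plakin gene PPL 1.61-fold and AP1M2, an epithelial clathrin adaptor subunit, 1.75-fold, while KRT7 was 2.04-fold lower. The number higher was 3 without DMSO replicate 2 or 3 or anlotinib replicate 2, and the number lower 2, 2 and 1. The number lower was also 2 with scaling by library totals and 6 without anlotinib replicate 1. The 247 bases upstream of AP1M2 (chr19:10587316-10587562, minus strand, GRCh38.p14, RefSeq) are shown as an example of a riser with several E-boxes of the kind that SNAI and ZEB proteins bind, CACCTG or CAGGTG on either strand, in capitals.
AP1M2 upstream: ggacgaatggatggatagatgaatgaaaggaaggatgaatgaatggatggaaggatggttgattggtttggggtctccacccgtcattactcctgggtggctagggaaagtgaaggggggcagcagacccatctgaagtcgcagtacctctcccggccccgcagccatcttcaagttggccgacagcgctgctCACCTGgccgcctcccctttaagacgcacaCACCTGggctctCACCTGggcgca
It holds 3 such E-boxes, and 17.5% of all windows hold at least 1, while the share with as many as 3 was not counted. Most other genes of this list that have a window also held at least 1 E-box, with 5 in that of CRB3. Those of CLDN1, CLDN3, CLDN4 and KRT8 held 0. E-boxes were thus not particular to the genes that rose. AP1M2 was chosen for display after its value was seen, and whether any factor binds there was not measured.

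Partners of the proteins behind CDH2, VIM and FN1 were counted by list from the tests of single genes. Of 13 cadherins and adhesion partners, 5 fell and 0 rose (median -0.24), or 38.5%, against 23.2% of all genes tested. CDH4, encoding R-cadherin, was 2.66-fold lower, VCL, the vinculin gene, 1.60-fold lower, NECTIN3, a junction adhesion gene, 1.27-fold lower and CTNNB1, the β-catenin gene, 1.21-fold lower. The number was 2 with scaling by library totals and without DMSO replicate 2 or 3 or anlotinib replicate 2, and 9 without anlotinib replicate 1, and the calls of NECTIN3 and CTNNB1 were among those lost (adjusted p = 0.091 and 0.073 with library totals).

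Of 14 filament relatives and linkers of vimentin, 4 fell and 3 rose (median -0.09), or 50%, against 23.2% of all genes tested. INA, encoding the neuronal filament protein internexin, rose 1.56-fold, the lamin genes LMNB2 and LMNB1 were 1.54-fold and 1.59-fold lower, and PLEC, encoding the linker plectin, 1.36-fold lower. PLEC no longer passed when DMSO replicate 1, 2 or 3 was left out (adjusted p = 0.091, 0.069 and 0.075) or anlotinib replicate 2 (0.12), and that of LMNB1 without anlotinib replicate 2 (0.058). Without DMSO replicate 1 or 3 or anlotinib replicate 2 the list had 2 lower and 1 higher, and without DMSO replicate 2 it had 2 lower.

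Among 18 fibronectin receptors and assembly genes, 8 fell and 0 rose (median -0.34), or 44.4%, against 23.2% of all genes tested. TGM2, a transglutaminase that binds fibronectin, was 3.38-fold lower, the adhesion adaptor gene TNS1 2.69-fold lower, ITGB6, an integrin β subunit gene, 1.73-fold lower and ITGAV, the αV subunit gene, 1.60-fold lower. ITGA5 and ITGB1, which form the main fibronectin receptor, were 1.24-fold and 1.43-fold lower (limma adjusted p = 0.0451 and 0.00533), while FN1 itself stood at -0.04 on the log2 scale. The ITGA5 call was lost without any single library other than anlotinib replicate 1 (adjusted p = 0.056 to 0.19), with the replicate block (0.051) and with library totals (0.053), and that of ITGB1 without anlotinib replicate 2 (0.056). The number lower was 13 without anlotinib replicate 1, 4 without anlotinib replicate 2 and 5 without DMSO replicate 2.

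In the S100 family, 3 of 8 tested relatives of S100A4 fell and 1 rose (median -0.17), or 50%, against 23.2% of all genes tested. S100P rose 4.25-fold, from 21.2 ± 6.74 to 91.1 ± 14.5 normalized counts (n = 3 per group), and S100A16, S100A10 and S100A3 were 1.44-fold, 1.32-fold and 1.42-fold lower. Leaving out DMSO replicate 2 left 0 of these decreases, and leaving out DMSO replicate 1 or 3 or anlotinib replicate 2 left 1.

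Of 20 genes that set the stability of SNAIL and ZEB proteins, 4 rose and 0 fell (median 0.10). That is 20%, near the 23.2% of all genes tested that passed. GSK3B, the kinase that marks SNAIL for degradation, rose 1.36-fold (limma adjusted p = 0.00246), and CSNK1A1, a casein kinase gene, 1.28-fold (adjusted p = 0.00837). The ubiquitin ligase gene SIAH1 rose 1.42-fold and the deubiquitinase gene USP51 1.54-fold. USP51 lost its call without any single library (adjusted p = 0.056 to 0.13), and SIAH1 without DMSO replicate 1, DMSO replicate 3 or anlotinib replicate 2 (0.082, 0.071 and 0.11). The number higher was 2 in each of those 3 settings and with DESeq2, and without anlotinib replicate 1 the number lower was 2. Protein levels were not measured.

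Of 21 genes of the TGF-β pathway, 9 fell and 1 rose (median -0.11), or 47.6%, against 23.2% of all genes tested. PMEPA1, a feedback inhibitor, was 7-fold lower, the latent TGF-β binding protein gene LTBP2 2.14-fold lower, the ligand gene TGFB2 1.77-fold lower and the receptor gene TGFBR1 1.72-fold lower. The gene that rose was the other receptor gene, TGFBR2, by 0.36 on the log2 scale (limma adjusted p = 0.0094). Its adjusted p was 0.058 when DMSO replicate 1 was left out and 0.054 when anlotinib replicate 2 was, and the number that rose was 2 without anlotinib replicate 1. The 0 counts in the mesenchymal marker, cadherin partner, fibronectin receptor and stability lists were also 0 with edgeR, DESeq2 and limma-voom, and that of the cadherin partners was 0 under all 17 alternatives. The mesenchymal markers had 1 higher with library totals, without a filter on low values and when the minimum mean was lowered to 1. The fibronectin receptors had 1 higher with the replicate block, without DMSO replicate 3 and without anlotinib replicate 1, and the stability genes had 1 lower without anlotinib replicate 3. At an unadjusted limma p under 0.05 they became 1 higher among the mesenchymal markers, 0 higher among the cadherin partners, 1 higher among the fibronectin receptors and 5 lower among the stability genes. All lists were written with earlier results of these data known, so that their counts are descriptions.

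**Figure D5:**
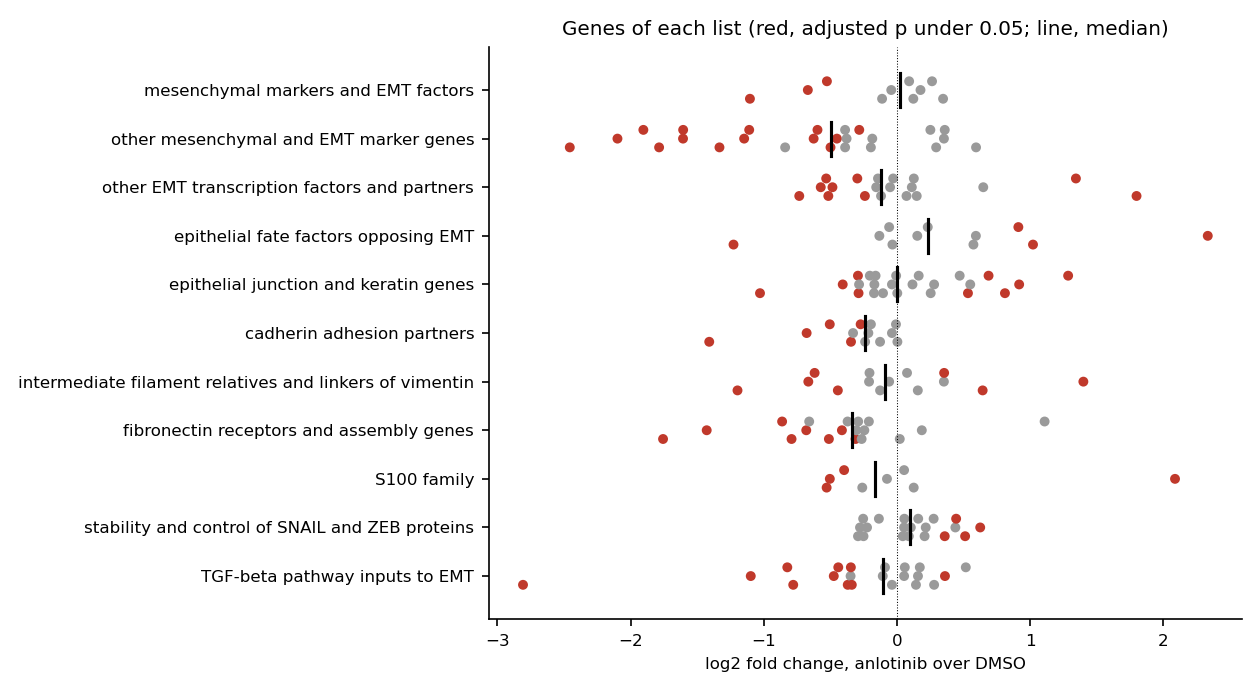
Log2 fold change of anlotinib over DMSO (horizontal axis) for the tested genes of each list, red where the adjusted p is under 0.05, with the list's median as a black line. The list of other mesenchymal and EMT markers has its median at -0.50, and the 10 genes described here at 0.02.

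Genes whose profile over the 6 libraries was most like that of the members that fell were sought among 10857 or 10858 genes with a mean of at least 100, by the root mean square difference of log2 values centred on each gene's mean. PARP1 and RAD51D were nearest to VIM, at 0.0311 and 0.032 on the log2 scale. SYT13 and ZNF185 were nearest to CDH2, at 0.0656 and 0.0672, and MTBP and BRSK2 to THY1, at 0.0765 and 0.0788.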

How the data were processed

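The deposited expression values are a signal: the authors' normalized counts, in which 1 step per library stands for 1 read, since 100% of the deposited values are whole multiples of it to within 1e-06 of a read. Beside them stand the log2 fold change, p-value and adjusted p-value of the authors' own comparison, and a gene length. Another 5 deposited files repeat single libraries with identical values. The aligner, the counter and whether strand was used are not stated in the labels or file headers. A mouse build is named in the submitters' processing notes, but all 30483 gene coordinates equal GENCODE release 29 on GRCh38, so that build is used. Per the labels, RNA was harvested with Trizol and libraries came from a SMARTer kit.

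Differences were fitted with limma-trend on log2(normalized count + 1), with no covariate, for genes with a mean of at least 10, and adjusted by Benjamini-Hochberg over all 15734. This scale understates the change of low genes. The calls of this fit were tested on simulated counts with known changes. Those counts had the same dispersion for every gene, few changed genes and no outlying library, unlike these data. They therefore do not vouch for the calls made here. Intervals are at 95% from the same fit, and their coverage was not tested. The reads recovered from the steps were passed to edgeR, DESeq2 and limma-voom as alternatives. The 10 genes and the 13 other lists (235 of 255 symbols found, members included) were chosen with earlier results of these data known. The text names, by rule, the 10 genes, up to 4 tested genes per list with the smallest p, genes overlapping a member and the 2 nearest profiles of each member that passed. A gene that the rule names is not reported here. Chosen after their values were seen were ACTA2, TAGLN, ITGA5, ITGB1, TWIST2, TGFBR2, CDH1, KRT8, EPCAM, NKX2-1, GRHL2, ESRP1, DCN, COL3A1, DES and PECAM1. Sequences come from RefSeq tables and GENCODE. Software comprised R 4.3.3 with limma 3.58.1, DESeq2 1.42.0 and edgeR 4.0.16, and Python 3.11.15 with scipy 1.17.1, pandas 2.3.3, numpy 2.4.6 and matplotlib 3.10.9.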

Additional observations from a re-analysis of the deposited data

How the results depend on the processing

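CDH2 and VIM passed as lower under all 17 alternatives to pseudocount, filter, scaling, test, block and library. Without single libraries the number of genes changed ran from 1972 to 5487 (3648 with all), and the number of the 10 genes from 2 to 4. The latter was 3 under every other alternative. Signs turned for FN1 (0.031 with library totals, -0.127 to 0.0072 without single libraries), S100A4 (-0.082 to 0.238), KRT8 (-0.308 to 0.0022), CD14 (-0.049 to 0.256) and ZEB1-AS1 (-0.063 to 0.258), and the cause was not tested. With the replicate block 3552 genes and 3 of the 10 passed, and the calls of CTNNB1, PLEC, USP51 and ITGA5 were lost (adjusted p = 0.062, 0.057, 0.064 and 0.051). Deviations of same-numbered libraries correlated at -0.041, 0.026 and -0.003. With 3 libraries per group, these values cannot settle whether same-numbered libraries share a culture or batch, which the labels do not state. Scaling by library totals moved the median of all genes by 0.075 and gave 2078 higher and 1553 lower, against 1645 and 2003. Counts in the lists stayed within 1.5 times in 389 of 442 comparisons. A count of 0 in both settings was taken as staying, so lists without calls in a direction raise that share. ZEB2, SNAI1 and THY1 rest on 41 to 123 reads per library, where small differences were not detectable.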
